A study of Homo sapiens with 6 samples.

Results

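Genes of the amino acid transporter families were examined in Hep3B, an established line of human liver cancer cells, in which the miR-17 family had been inhibited. Members were the probe sets whose platform gene symbol begins with SLC1A, SLC3A, SLC6A, SLC7A, SLC36A, SLC38A or SLC43A. This rule took 147 of 54675 probe sets, with 62 symbols. Of these, 138 probe sets represent 56 transporter genes, and 9 match by spelling only: 7 for 5 antisense RNAs, within 0.05 of the lowest value of the table on all 6 arrays, and 2 for SLC7A6OS, a neighbour of SLC7A6 that encodes no transporter. Another 9 probe sets list a symbol of these families together with other genes and were not named.

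Each sample of total RNA was hybridised to an Affymetrix HG-U133 Plus 2 array, 3 from cells with a miR-17 TuD and 3 from cells with an NC TuD, the control. A TuD (tough decoy) is an RNA with exposed microRNA binding sites that occupies the microRNA. Both groups were made the same way, by lentiviral transduction for 48 hours at a multiplicity of infection of 5, puromycin selection, and pooling of resistant colonies after 2 weeks, so each group is a single pooled line. Nothing in the labels says that the 3 samples of a group came from separate cultures, so the p-values rest on a spread among samples that may be technical. Every description also holds a code that contains 72HR in all 6 samples, with PLUSDOX where the decoy was miR-17 TuD and NODOX where it was NC TuD. No source used here explains the code, and what PLUSDOX and NODOX stand for cannot be told apart from the decoy.

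Amino acid transporters set which amino acids a cell can take up, exchange or release across its plasma membrane and its lysosomes. Some work alone, coupled to sodium, chloride or protons. Others are light chains that reach the membrane only when bound to a heavy chain of the SLC3 family, and some report lysosomal amino acids to the growth kinase mTORC1. Hepatocytes use them for glutamine and alanine uptake, for urea and glutathione synthesis, and hepatoma cells often carry transporters that adult liver lacks.

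The mature microRNAs of the miR-17 family share their seed, bases 2 to 8 from the 5′ end, shown in capitals. The sequences are from RefSeq (GRCh38.p14), 5′ to 3′.
hsa-miR-17-5p: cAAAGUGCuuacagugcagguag
hsa-miR-20a-5p: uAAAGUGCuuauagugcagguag
hsa-miR-20b-5p: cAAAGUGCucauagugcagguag
hsa-miR-93-5p: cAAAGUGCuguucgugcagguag
hsa-miR-106a-5p: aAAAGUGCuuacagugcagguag
hsa-miR-106b-5p: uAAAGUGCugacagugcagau
All 6 carry the same seed and differ from each other at the first base or downstream of the seed. They are shown because this seed defines the family, and their levels were not analysed here.

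In the cells with the miR-17 decoy, 4 transporter genes had 1 probe set called lower, and none had a probe set called higher. SLC6A14, a broad uptake carrier for neutral and cationic amino acids, fell 2.45-fold. SLC7A11, the cystine and glutamate exchanger, SLC38A9, the lysosomal arginine sensor of mTORC1, and SLC6A8, the creatine transporter, fell by 1.24-fold, 1.13-fold and 1.10-fold. These sizes are those of the called probe sets. On its probe set with the highest mean, SLC7A11 did not pass (-0.20, adjusted p = 0.375 in limma). The large neutral amino acid pair SLC7A5 and SLC3A2, the glutamine carrier SLC1A5 and the alanine and glutamine carrier SLC38A2 did not pass, with log2 differences from -0.13 to 0.05 on their probe sets with the highest mean. In limma with Benjamini-Hochberg adjustment over all 32768 probe sets tested, 4 of the 85 tested transporter probe sets passed the threshold of 0.05, or 4.71%, against a background of 5.83% for either direction, 2.48% for lower and 3.35% for higher. The share of called transporters was thus near the background. At an unadjusted p under 0.05 in limma, 13 were lower (15.3%, background 10.8%) and 1 was higher (1.18%, background 11.3%). This split moved with the scaling and with 1 array: it was 11 lower and 8 higher with array medians aligned, 15 and 6 with quantile normalization, and 13 and 9 without miR-17 TuD replicate 1. Leaving out any single NC TuD array ended all 4 calls, and with no filter on low values only SLC6A14 passed (adjusted p = 0.0377). With the replicate number as a block, no probe set of the whole array passed.

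**Figure D1:**
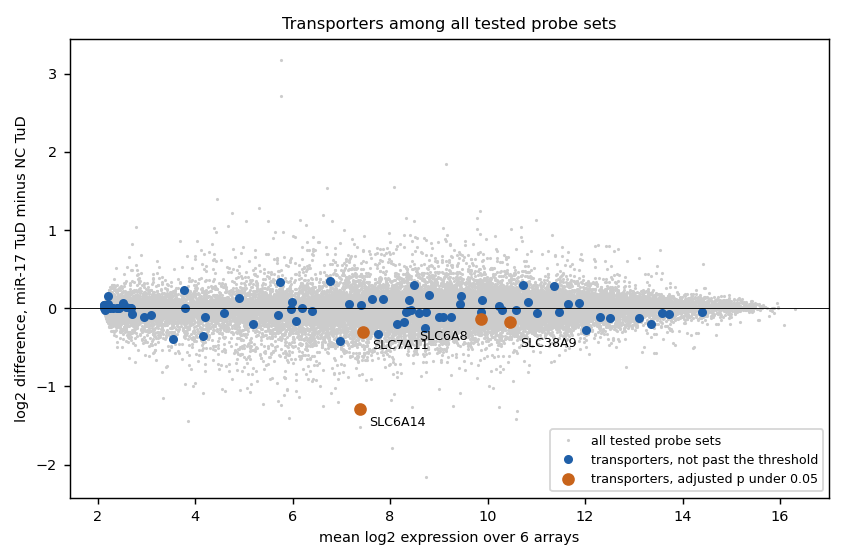
The log2 difference (miR-17 TuD minus NC TuD) of each tested probe set is plotted against its mean log2 expression over the 6 arrays. Grey points are all 32768 tested probe sets, blue points are transporters that did not pass the threshold and orange points are the 4 that did, of which SLC6A14 stands apart at -1.29 while the others lie within the grey band.

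All values are the authors' deposited log2 expression, and a negative difference means a lower level with the miR-17 decoy. The table has a shared lowest value of 2.12, held by 34.9% to 35.4% of probe sets on each array, and the highest value is 16.3. A value within 0.05 of the lowest was taken as at the floor, where a change cannot be seen. Arrays correlated at r of 0.9994 to 0.9997 within groups and 0.9988 to 0.9991 between them. Of 11 measured hepatocellular marker genes, including ALB, APOA1 and TTR, none was at the floor. In the miR-17 TuD arrays, 10 of the 11 were called lower, against 3.14% of all 13949 genes, each represented by 1 probe set. The other marker, SERPINA1, was 0.13 higher without overlap and did not pass (adjusted p = 0.122 in limma). The summed level of all 11 was 17.35 to 17.41 in the miR-17 TuD arrays and 17.61 to 17.67 in the NC TuD arrays. The immune markers PTPRC and CD3E and the endothelial markers VWF, CDH5, LYVE1 and STAB2 were at the floor. The fibroblast list was mixed, with COL3A1 and DCN at the floor and PDGFRB low at 3.78 against 3.86. COL1A1 stood at 12.8 against 12.5 with overlap. COL1A2, at 9.35 against 8.91, and LUM, at 10.7 against 10.4, were higher without overlap, and no fibroblast gene passed. LYZ was the immune gene that passed, 0.59 higher. Summed levels ran from 7.26 to 7.46 against 6.86 to 6.95 for the 4 measured immune genes, 12.9 to 13.4 against 12.9 for the 6 fibroblast genes and 5.19 to 5.61 against 5.15 to 5.19 for the 6 endothelial genes. The part of these markers in the transporter results was not tested. In bulk RNA, fewer cells with a transcript and less transcript per cell cannot be told apart.

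The floor held many members. Of the 138 transporter probe sets, 53 were at the floor on all 6 arrays, 40 were above it on at least 1 array with a mean of 7 or less, and 45 probe sets of 25 genes had a mean over 7. For 11 genes every probe set was at the floor on all 6 arrays. These were the glutamate transporter gene SLC1A6, the dopamine and serotonin transporter genes SLC6A3 and SLC6A4, the glycine transporter gene SLC6A5, the proline transporter genes SLC6A7 and SLC6A20, the arginine transporter gene SLC7A3 and its relatives SLC7A4 and SLC7A14, SLC7A13, and SLC38A5, a system N glutamine transporter gene. SLC1A2, the main glutamate transporter of astrocytes, was at the floor on 5 of its 6 probe sets, and the other held 2.39 on every array. No probe set was at the floor on all 3 arrays of one group and above it on all 3 of the other.

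Floor values depended on the probe set as well as on the gene. In 9 genes (SLC1A3, SLC6A6, SLC7A1, SLC7A2, SLC36A1, SLC38A1, SLC38A7, SLC38A9 and SLC38A10) at least 1 probe set was at the floor on all 6 arrays while another had a mean over 7. SLC7A2, for instance, was at 2.12 and 2.13 on 2 probe sets and between 8.53 and 8.91 on the third. A floor value on 1 probe set therefore does not show that a transcript is missing, and levels of different probe sets are not compared here.

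**Figure D2:**
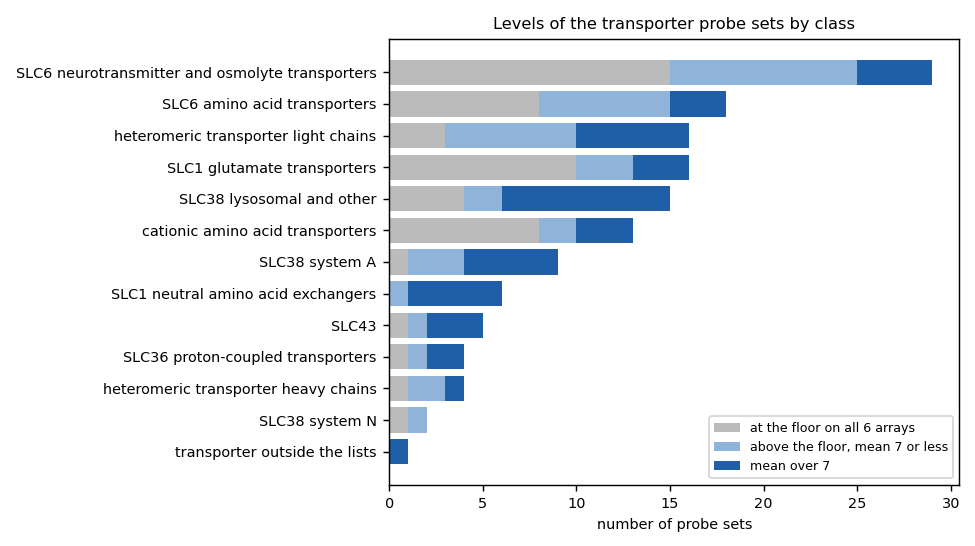
The horizontal bars count transporter probe sets in each functional class by their level: at the floor on all 6 arrays (grey), above it with a mean log2 expression of 7 or less (light blue) and with a mean over 7 (dark blue). The SLC6 neurotransmitter and osmolyte transporters had 15 of 29 probe sets at the floor and the cationic amino acid transporters 8 of 13, whereas the SLC1 neutral amino acid exchangers had none of 6.

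Among the 45 transporter probe sets with a mean over 7, 29 had a difference below 0 and 16 above it, and their median was -0.052. The 29 are 64.4%, against 49.3% of all tested probe sets with such a mean, whose median was 0.0019. The 4 called lower are 8.89% of these 45, against 4.02% of the same background, where 5.55% were called higher and 9.57% in either direction. The groups did not overlap in 17 of the 85 tested probe sets with the miR-17 TuD arrays lower (20.0%, background 13.6%) and in 7 with them higher (8.24%, background 13.7%). Probe sets of a gene are not independent of each other, so these shares are descriptions. The signs also depend on scaling: of all 85 tested, 46 were below 0 as deposited and 39 with array medians aligned, which moved the median of all tested probe sets by 0.02. Among the 45 probe sets with a mean over 7, sizes were small, with a median absolute difference of 0.11 against 0.098 among all tested probe sets with such a mean, and the largest were those of SLC6A14 and SLC1A3.

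Sodium- and chloride-coupled carriers of the SLC6 family held the largest change. SLC6A14 stood at 6.91, 6.76 and 6.56 in miR-17 TuD replicates 1 to 3 and at 7.97, 8.07 and 8.06 in NC TuD replicates 1 to 3. The lowest control lay more than 1 log2 unit above the highest miR-17 TuD array, and the miR-17 TuD arrays were the more spread. The means were 6.74 ± 0.18 and 8.03 ± 0.058 (SD, n = 3), a difference of -1.29 (SE 0.10, 95% interval -1.56 to -1.03, adjusted p = 0.0133 in limma). Its limma adjusted p rose to 0.0636, 0.0662 and 0.0596 when NC TuD replicate 1, 2 or 3 was left out, while the difference stayed between -1.38 and -1.20 over the 6 leave-one-out fits. The gene has 1 probe set on the array, so no other probe set can be set beside it.

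SLC6A8, which imports creatine, was measured by 3 probe sets with a mean over 7. The called one stood at 9.78, 9.81 and 9.81 in the miR-17 TuD arrays and 9.92, 9.97 and 9.91 in the NC TuD arrays, without overlap (difference -0.13, SE 0.019, adjusted p = 0.0325 in limma). The other 2, both of suffix x_at, which can bind related transcripts, gave -0.12 each (adjusted p = 0.12 and 0.129 in limma), also without overlap. The sizes of the 3 are close, and the call rests on the narrow spread of the first. No fit with 1 array fewer kept it (limma adjusted p from 0.0751 to 0.104), nor did the fit with aligned array medians (0.0708).

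The other SLC6 members did not pass. SLC6A6, the taurine transporter, differed by 0.08 (95% interval -0.06 to 0.21) on its probe set with the highest mean. SLC6A19, a neutral amino acid carrier of kidney and gut, had probe sets that differed in sign, 0.10 and -0.11 (adjusted p = 0.289 and 0.173). SLC6A11, a GABA transporter, lay at about 6 or below on its 4 probe sets, with -0.01 on the highest. SLC6A16, an orphan member, was low but above the floor on its higher probe set, from 2.81 to 3.99.

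The promoters of the called genes are shown as the stretch where such changes could be examined further, 250 bases before a RefSeq start site (GRCh38.p14), 5′ to 3′ along the gene. The 3 genes shown have 5 windows, and for each gene the window of its most 5′ start site is printed.
SLC6A14, chrX:116436356-116436605, plus strand: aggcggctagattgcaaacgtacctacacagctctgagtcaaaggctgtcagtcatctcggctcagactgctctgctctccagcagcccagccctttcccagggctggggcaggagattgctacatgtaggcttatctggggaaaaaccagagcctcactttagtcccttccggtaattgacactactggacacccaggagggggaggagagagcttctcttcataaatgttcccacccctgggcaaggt
SLC6A8, chrX:153687676-153687925, plus strand: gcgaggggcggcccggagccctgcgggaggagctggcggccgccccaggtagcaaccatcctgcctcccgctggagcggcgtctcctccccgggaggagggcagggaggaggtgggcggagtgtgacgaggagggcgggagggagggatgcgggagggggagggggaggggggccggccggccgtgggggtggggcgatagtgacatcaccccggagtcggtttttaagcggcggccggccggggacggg
SLC38A9, chr5:55712336-55712585, minus strand: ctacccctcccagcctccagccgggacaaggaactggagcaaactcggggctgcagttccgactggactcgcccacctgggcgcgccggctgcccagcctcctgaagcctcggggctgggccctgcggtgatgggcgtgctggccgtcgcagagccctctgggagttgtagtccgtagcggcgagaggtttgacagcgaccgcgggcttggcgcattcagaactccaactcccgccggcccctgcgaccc
A window for SLC7A11 was not used here. Windows of 300 bases (250 before to 50 after the start) were searched on both strands for TGATGNAA, the core of the element bound by ATF4 with C/EBP partners, and for TGACNNNGC, the core of the antioxidant response element. Neither was found in the windows of SLC6A14, SLC6A8 or SLC38A9, which is why no letter is in capitals, and this says only that these letters are not in these windows. TGATGNAA was in 9.38% of 64 transporter windows, those of SLC1A3, SLC1A4, SLC1A5, SLC3A2, SLC7A1 and SLC38A1, against 3.62% of all 35116 windows. TGACNNNGC was in 10.9% against 13.3%. No match of one motif overlapped a match of the other, and a match is not a binding site.

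Light chains of the heteromeric transporters and their heavy chains gave 1 call in 16 tested probe sets. SLC7A11, whose cystine import feeds glutathione synthesis, stood at 7.38, 7.29 and 7.23 in the miR-17 TuD arrays and 7.65, 7.58 and 7.59 in the NC TuD arrays on the called probe set. The groups did not overlap (7.30 ± 0.076 against 7.61 ± 0.036, SD, n = 3, difference -0.31, SE 0.045, adjusted p = 0.036 in limma). A second probe set of the gene gave 8.23, 8.04 and 7.86 against 8.20, 8.36 and 8.19, with overlap through miR-17 TuD replicate 1 (-0.20, 95% interval -0.49 to 0.09, adjusted p = 0.375). The third was near the floor on all arrays except miR-17 TuD replicate 2, at 2.61. The call held without miR-17 TuD replicate 1 (adjusted p = 0.0378) and was lost in the other 5 of the 6 leave-one-out fits (0.0653 to 0.123). It also ended with 1 value a gene, taken from the second probe set, whose mean is the highest (adjusted p = 0.314), or from the average of its probe sets (-0.12, adjusted p = 0.35). That average includes the third probe set, which differed by 0.16 through the value of 2.61.

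The obligatory partner of SLC7A11, the heavy chain SLC3A2, stood at 11.65, 11.69 and 11.70 against 11.62, 11.58 and 11.69, and the groups overlapped (0.05, 95% interval -0.04 to 0.14). SLC7A5, its other main light chain, which imports leucine and other large neutral amino acids, stood at 12.49, 12.46 and 12.38 against 12.56, 12.61 and 12.55. Its groups did not overlap, but the difference of -0.13 did not pass (adjusted p = 0.113 in limma). SLC7A6, an arginine and glutamine exchanger, had 3 probe sets with differences from -0.02 to 0.06, all with overlap. The kidney and gut pair SLC3A1 and SLC7A9 was low, with SLC3A1 at 5.86, 5.66 and 6.18 against 5.62, 5.59 and 5.50 (0.33, adjusted p = 0.276) and SLC7A9 between 3.84 and 4.67. SLC7A7 and SLC7A8, light chains of export and exchange, did not pass either (adjusted p = 0.725 and 0.756 on their probe sets with the highest mean).

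**Figure D3:**
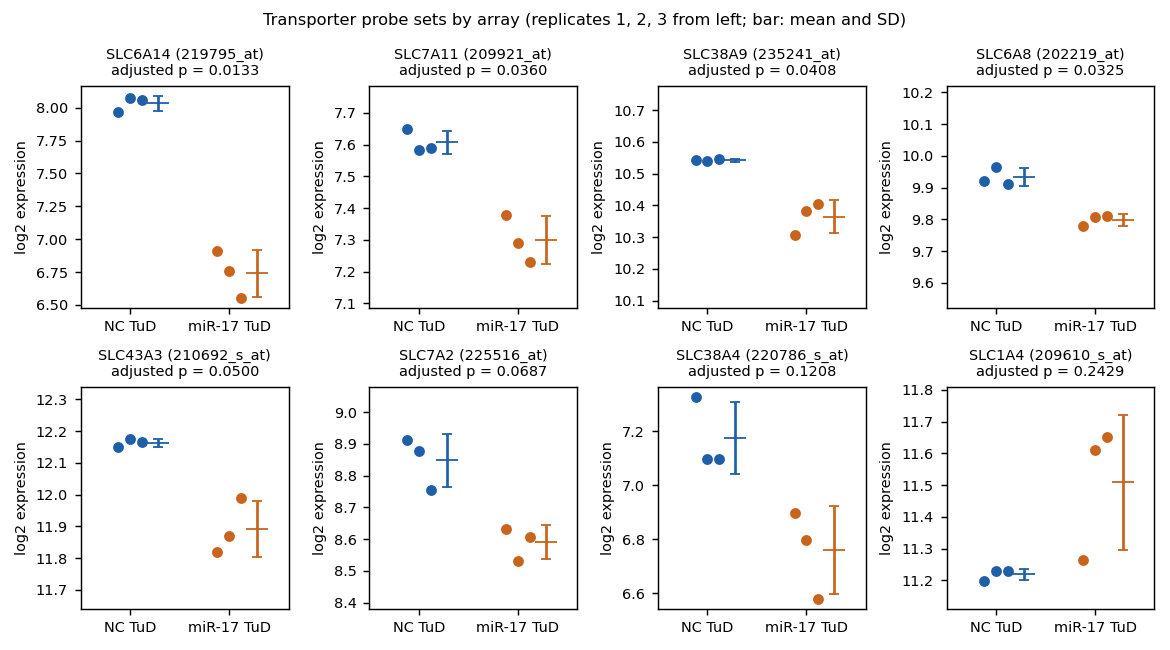
Each panel shows the log2 expression of 1 probe set on the 3 NC TuD arrays (blue) and the 3 miR-17 TuD arrays (orange), with replicates 1 to 3 from left to right and the mean with its SD beside them. The upper row holds the 4 called probe sets, and the lower row holds SLC43A3, SLC7A2, SLC38A4 and SLC1A4, which did not pass. The groups do not overlap in any panel of either row. Axes differ between panels and do not start at 0.

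Among cationic amino acid transporters, SLC7A2, which carries arginine and is typical of liver, stood at 8.63, 8.53 and 8.61 against 8.91, 8.88 and 8.75 in the NC TuD arrays. The groups did not overlap, and the difference of -0.26 missed the threshold (SE 0.053, adjusted p = 0.0687 in limma). It passed when each gene was represented by 1 probe set or by the average of its probe sets, with the array medians aligned, and with the filter on low values at the 60th percentile. SLC7A1, the widely expressed arginine carrier, gave 0.07 (95% interval -0.15 to 0.28) on its highest probe set, with values of 11.76, 11.92 and 12.04 against 11.79, 11.89 and 11.83.

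The SLC38 family holds the sodium-coupled system A carriers of small neutral amino acids, SLC38A1, SLC38A2 and SLC38A4, whose genes lie next to each other in the RefSeq gene order. All 8 tested probe sets of these 3 genes, which are not independent of each other, had a difference below 0 and none passed. Of the 8, 5 had a mean over 7, a level at which 49.3% of all tested probe sets were below 0. SLC38A4, the member typical of liver, stood at 6.90, 6.80 and 6.58 against 7.33, 7.10 and 7.10, without overlap (-0.41, SE 0.11, adjusted p = 0.121 in limma). It passed as the average of its probe sets and with the filter at the 60th percentile. SLC38A1 differed by -0.13 (95% interval -0.27 to 0.01) and SLC38A2 by -0.05 (-0.11 to 0.00) on their probe sets with the highest mean, both near the upper end of the scale, where SLC38A2 stood at 14.36, 14.41 and 14.35 against 14.40, 14.45 and 14.43. The miR-17 TuD and NC TuD arrays overlapped for SLC38A2 and did not for SLC38A1.

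SLC38A9, which passes the arginine content of the lysosome to mTORC1, stood at 10.31, 10.38 and 10.40 against 10.54, 10.54 and 10.55. The groups did not overlap, and the controls were within 0.01 of each other (10.37 ± 0.051 against 10.54 ± 0.0047, SD, n = 3, difference -0.18, SE 0.028, adjusted p = 0.0408 in limma). The call held without miR-17 TuD replicate 1 (-0.15, adjusted p = 0.0261) and was lost in the other 5 (0.0589 to 0.144). Its second probe set was at the floor. SLC38A7, a lysosomal glutamine exporter, had 3 probe sets between -0.05 and -0.02, and its control values were identical on 1 of them. SLC38A10, whose protein is less well described, had 1 probe set at -0.17 without overlap (adjusted p = 0.0889) and 3 others with a mean over 7 that ran from -0.05 to 0.11 with overlap. SLC38A3, the system N glutamine carrier of hepatocytes, was low at 5.66 against 5.75 and did not pass.

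**Figure D4:**
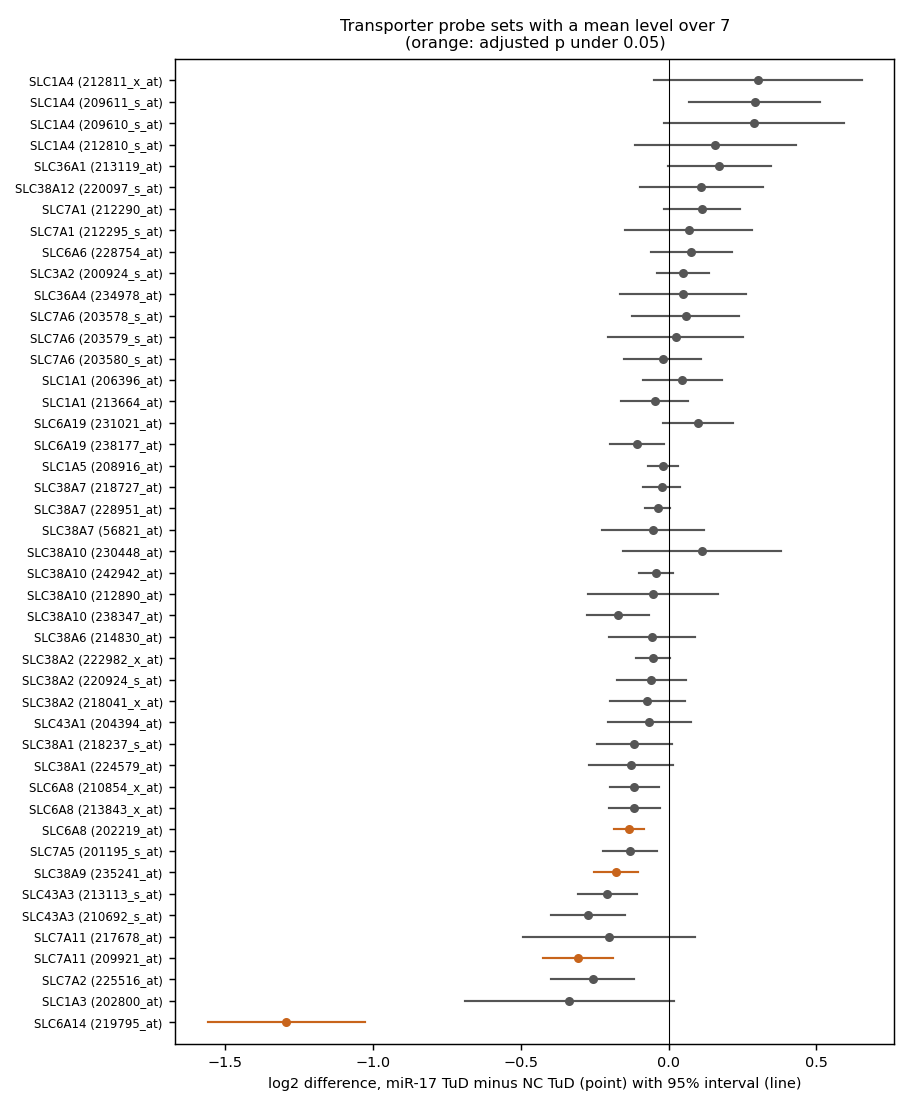
Points are log2 differences (miR-17 TuD minus NC TuD) of the 45 transporter probe sets with a mean over 7, with 95% intervals from limma as lines, grouped by gene from the highest to the lowest mean difference. The 4 called probe sets are orange, and SLC6A14 at -1.29 is the only interval that lies wholly below -1.

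In the SLC1 family, neither neutral amino acid exchanger passed. SLC1A4, which carries alanine, serine and cysteine, had 4 probe sets with a mean over 7, all with a difference above 0 (0.16 to 0.30). Its highest stood at 11.26, 11.61 and 11.65 in miR-17 TuD replicates 1 to 3 against 11.20, 11.23 and 11.23. The groups did not overlap, with replicate 1 just above the controls and the other 2 further above them (11.51 ± 0.21 against 11.22 ± 0.018, SD, n = 3, difference 0.29, adjusted p = 0.243 in limma). Replicate 1 was also the lowest miR-17 TuD array on the other 3 probe sets, 1 of which had no overlap either (0.29, adjusted p = 0.136 in limma). Without replicate 1 the difference of the highest probe set was 0.41 (adjusted p = 0.0228), and 2 of the 4 probe sets were called higher. SLC1A5, the main glutamine carrier of many tumour cells, stood at 10.25, 10.30 and 10.31 against 10.30, 10.30 and 10.32, and the interval of its difference ran from -0.07 to 0.03.

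Among the glutamate carriers, SLC1A3 stood at 7.77, 7.30 and 7.67 against 7.91, 7.94 and 7.89. The groups did not overlap and miR-17 TuD replicate 2 was the lowest (-0.34, 95% interval -0.69 to 0.02, adjusted p = 0.243 in limma). SLC1A1 had 2 probe sets that differed in sign, 0.05 and -0.05, both with overlap.

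SLC43A3, a carrier of purine nucleobases that shares its family with amino acid carriers, came closest to the threshold without passing. Its probe sets stood at 11.82, 11.87 and 11.99 against 12.15, 12.18 and 12.17 (-0.27, SE 0.048, adjusted p = 0.05004, just over the threshold) and at 13.18, 13.22 and 13.32 against 13.45, 13.46 and 13.44 (-0.21, SE 0.038, adjusted p = 0.0541 in limma). Both pairs of groups were apart, and both probe sets passed with quantile normalization, aligned array medians, array weights or the filter at the 60th percentile, and without miR-17 TuD replicate 3. The amino acid carriers of the family, which export or import large neutral amino acids, did not pass: SLC43A1 differed by -0.07 (95% interval -0.21 to 0.08) and SLC43A2 by 0.35 (-0.05 to 0.74), with SLC43A2 at 6.77, 6.88 and 7.15 against 6.71, 6.35 and 6.71.

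The proton-coupled carriers gave no call. SLC36A1, which releases small amino acids from lysosomes, stood at 8.80, 8.90 and 8.95 against 8.78, 8.74 and 8.60, without overlap (0.17, adjusted p = 0.228 in limma). SLC36A4 differed by 0.05 with overlap.

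Genes around the transporters were described by the probe set of each gene with the highest mean, against a background of 4.82% of 13949 genes called higher and 3.14% called lower, and a median difference of 0.0006. A list of 22 transporters of other families held amino acid transporters and the glutathione carriers SLC25A39 and SLC25A40. Of these, 17 were tested, 1 was lower and 1 was higher, with a median of 0.062, the value of SLC25A39. The lower one was SLC16A10, an aromatic amino acid carrier, at 8.77, 8.58 and 8.79 against 9.35, 9.41 and 9.38, a 1.58-fold fall (-0.66, adjusted p = 0.0176 in limma). The higher one was SFXN1, a mitochondrial serine carrier, at 0.24 (adjusted p = 0.0478), measured by a probe set of suffix x_at. The SLC16A10 call ended when any single control array was left out (adjusted p up to 0.0826), and the SFXN1 call in 5 of the 6 leave-one-out fits. Over 16 alternative fits, these 6 included, the SFXN1 difference ran from 0.05 to 0.28. In 9 of the 16 it did not pass (limma adjusted p up to 0.32).

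Of 35 measured genes that pass amino acid signals to mTORC1 at the lysosome, 1 was higher and 1 lower, with a median of 0.024. RRAGD, a Rag GTPase that recruits mTORC1, stood at 10.01, 10.04 and 10.14 against 9.71, 9.60 and 9.55 (0.45, adjusted p = 0.0268 in limma). TSC1, a subunit of the complex that restrains mTORC1, stood at 9.29, 9.22 and 9.33 against 9.66, 9.62 and 9.63 (-0.36, adjusted p = 0.0159). The RRAGD call was lost in all 6 leave-one-out fits (adjusted p from 0.0601 to 0.112) and the TSC1 call whenever a control array was left out (up to 0.0719).

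Of 18 genes of the amino acid response that the kinase GCN2 and the factor ATF4 drive, a pathway that induces SLC7A11, SLC7A5 and SLC38A2 when amino acids are short, 2 were lower and 1 was higher, with a median of -0.067. STC2, a secreted glycoprotein, stood at 7.73, 7.60 and 7.66 against 8.16, 8.18 and 8.25 (-0.53, adjusted p = 0.0141 in limma), and the stress-induced regulator NUPR1 differed by -0.19 (adjusted p = 0.04). The lipoprotein receptor VLDLR was higher by 0.46 (adjusted p = 0.0374). ATF4 itself differed by -0.02 (adjusted p = 0.42), ASNS, its asparagine synthetase target, by -0.004 and TRIB3, a feedback inhibitor, by 0.02. Other genes that did not pass had groups without overlap, in both directions. EIF2AK4, the gene of GCN2, differed by -0.22, CHAC1 by -0.26 and DDIT4 by -0.39 (adjusted p = 0.0819, 0.0526 and 0.0863 in limma). CEBPG differed by -0.11 and PSAT1 by -0.06, while ATF5 was higher by 0.47 (adjusted p = 0.0586 in limma). Leaving out a control array ended the STC2 call (up to 0.0665), and those of NUPR1 and VLDLR were lost in 5 of the 6 leave-one-out fits.

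Of 8 measured genes for proteins that help transporters reach or leave the membrane, SGK1, a kinase that promotes their surface retention, was lower at 11.69, 11.72 and 11.87 against 12.19, 12.18 and 12.19 (-0.43, adjusted p = 0.0274 in limma), and none was higher. Its call was lost in 5 of the 6 leave-one-out fits (adjusted p up to 0.111).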

How the data were processed

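Total RNA from 6 Hep3B samples was measured on 6 arrays. The authors deposited log2 expression values per probe set; RMA and GCRMA appear in the submitters' processing notes without a role or version. Probe sets were named through GEO's platform annotation: 41091 had 1 symbol, 1801 several and 11721 none. The filter kept 32768 probe sets whose mean exceeded the 40th percentile of means (2.137). The test between the groups of 3 was limma's (version 3.58.1, R 4.3.3, with lmFit and eBayes, 2-sided, Benjamini-Hochberg, threshold 0.05), after a test on simulated data. The number of arrays limits the precision.

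Members and lists were chosen with earlier results of these data known. Named with values were all called members, the 5 next by adjusted p, further probe sets of called genes, a panel of 12 transporters and up to 4 called genes per pathway list. Other members were added to complete their class after their values were seen. Some genes of the lists that did not pass were also named after their values were seen. Alternatives changed the filter, normalization, variance model, array weights, replicate block, probe set summary, cross-hybridising probe sets, floor tolerance and each array. SLC36A2, SLC36A3 and SLC38A8 were not analysed here. Sequences are from RefSeq tables (GRCh38.p14), with windows for 42 of the 56 transporter genes.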

Additional observations from a re-analysis of the deposited data

How the results depend on the processing

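Precision is limited by 3 arrays a group from 1 pooled line each, and a probe set at the floor cannot show a fall. The 1910 probe sets called in all became 554 with no filter on low values, 3271 with the filter at the 60th percentile, 2930 with each array centred on its median (a shift of 0.02 for the median of all tested probe sets) and 836 without probe sets of suffix s_at and x_at. The 4 transporter probe sets called lower, of 4 genes, became 1 of 1 gene (SLC6A14) with no filter and 8 of 7 genes at the 60th percentile. SLC7A11 was not called in either fit with 1 value a gene. With centring, SLC6A14, SLC7A11 and SLC38A9 stayed called lower, SLC7A2 and both probe sets of SLC43A3 joined them, and the SLC6A8 call was lost. In the same fit 1 transporter probe set (SLC1A4) was called higher, and the difference of SLC1A5 reversed from -0.02 to 0.0023. The cause of these changes was not tested.

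Leaving out 1 array at a time gave 145 to 1155 calls in all, 0 to 3 transporter probe sets lower, 0 to 2 higher and 0 to 4 transporter genes called. The 2 higher were both SLC1A4, without miR-17 TuD replicate 1. No transporter was called by limma without NC TuD replicate 1, 2 or 3, where 15, 13 and 10 were lower at an unadjusted p under 0.05 and 2, 0 and 1 higher. Without miR-17 TuD replicate 1, 2 or 3 these counts were 13, 13 and 16 lower and 9, 2 and 1 higher, and with medians aligned 11 lower and 8 higher. The number of transporter probe sets at the floor was 53, with 49 within 0.01 of the lowest value and 69 within 0.5.

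With the replicate number as a block, limma called 0 probe sets in all, 0 transporter probe sets lower and 0 transporter genes, although 7488 probe sets had an unadjusted p under 0.05, among them 15 transporters lower and 1 higher. Deviations of same-numbered arrays correlated at 0.040, 0.10 and 0.11, and those of arrays with different numbers at -0.098 to -0.009. Each array correlated best with its own number, a hint from the data that the labels do not state. The main fit did not take the numbers as pairs because the labels state no pairing, and whether they are pairs is not known.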
